A study of Mus musculus with 12 samples.

Results

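Antimicrobial peptides and acute phase proteins of the skin were followed through 2 days of imiquimod (IMQ) treatment in mice with and without the aryl hydrocarbon receptor (AhR). The set was chosen by name and holds 10 genes: Lcn2, Ltf, Camp, Slpi, Defb1, Defb3, Defb4, Defb14, Saa3 and Hp. Of these, 9 had an array probe set annotated to that gene alone, out of 18193 genes measured in this way. Defb14, which lies next to Defb4 in the mouse annotation, had no such probe set and has no value here. Defb1 was measured by 2 probe sets and each of the other genes by 1.

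RNA from whole skin was hybridised to 12 Affymetrix mouse genome arrays, 3 in each of 4 groups. AhR KO mice were AhR-/- and AhR HET mice were their AhR+/- littermates, so the control mice also lacked 1 copy of the gene. Skin was taken from AhR KO and AhR HET mice on day 2 of imiquimod treatment, and from untreated mice of each genotype on day 0. Imiquimod, an agonist of Toll-like receptor 7 in mice, was applied as a cream to shaved back skin and causes an inflammation that resembles psoriasis. The labels name no group given cream without imiquimod, so the effects of imiquimod, cream and handling cannot be told apart. They give neither the sex nor the age of the mice, and number the 3 arrays of each group as biological replicates. The deletion is in every cell of the animal, and the RNA is that of the whole skin, in which more cells of a type and more RNA per cell cannot be told apart.

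The proteins of this set are made at surfaces and in neutrophils when tissue is injured or infected. Beta-defensins and the cathelicidin encoded by Camp disrupt microbial membranes, whereas lactoferrin (Ltf) and lipocalin 2 (Lcn2) withhold iron, the first by binding the metal and the second by binding the siderophores that bacteria use to collect it. Acute phase proteins such as serum amyloid A (Saa3) and haptoglobin (Hp) are induced by interleukin-1, interleukin-6 and related cytokines, in part through the C/EBP and NF-kB families of transcription factors. In keratinocytes, interleukin-17A and interleukin-22 induce several of these genes, and the same proteins are abundant in psoriatic plaques.

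Because C/EBP factors are textbook regulators of several of these genes, their promoters are shown with the letters of that motif. The RefSeq promoter table of build GRCm38.p6 held 6 of the 10 genes: Lcn2, Ltf, Camp, Slpi, Defb3 and Saa3. The letters TTGCNNAA were found on either strand in the 250 bases before the annotated start in 5 of these 6, all but Camp, against 9.56% of 32851 mouse promoters searched the same way. Lcn2 and Slpi held the same 8 letters in opposite orientation, TTGCTCAA and TTGAGCAA, and so did Defb3 and Saa3, with TTGCATAA and TTATGCAA. On either strand, the octamer of the first pair occurred in 0.868% and that of the second in 0.694% of all these promoters. The 5 sequences are given 5′ to 3′ on the strand of the gene, with the matched letters in capitals. They lie at chr2:32387740-32387989 on the minus strand for Lcn2, chr2:164356508-164356757 on the minus strand for Slpi, chr8:19293111-19293360 on the plus strand for Defb3, chr7:46715677-46715926 on the minus strand for Saa3 and chr9:111019042-111019291 on the plus strand for Ltf.
Lcn2: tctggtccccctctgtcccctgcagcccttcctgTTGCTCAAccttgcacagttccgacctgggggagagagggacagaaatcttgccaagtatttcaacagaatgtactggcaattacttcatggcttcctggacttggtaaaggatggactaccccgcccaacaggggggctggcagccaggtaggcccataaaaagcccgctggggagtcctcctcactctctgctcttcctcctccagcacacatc
Slpi: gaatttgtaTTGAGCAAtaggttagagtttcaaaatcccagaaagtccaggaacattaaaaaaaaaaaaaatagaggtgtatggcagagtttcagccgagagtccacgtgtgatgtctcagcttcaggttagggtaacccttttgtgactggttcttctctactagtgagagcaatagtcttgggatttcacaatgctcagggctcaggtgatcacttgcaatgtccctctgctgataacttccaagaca
Defb3: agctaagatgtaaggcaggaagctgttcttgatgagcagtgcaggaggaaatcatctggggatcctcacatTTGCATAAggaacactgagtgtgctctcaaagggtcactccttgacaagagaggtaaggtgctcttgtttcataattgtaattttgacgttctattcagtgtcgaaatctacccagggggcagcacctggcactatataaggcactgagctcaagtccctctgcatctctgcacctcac
Saa3: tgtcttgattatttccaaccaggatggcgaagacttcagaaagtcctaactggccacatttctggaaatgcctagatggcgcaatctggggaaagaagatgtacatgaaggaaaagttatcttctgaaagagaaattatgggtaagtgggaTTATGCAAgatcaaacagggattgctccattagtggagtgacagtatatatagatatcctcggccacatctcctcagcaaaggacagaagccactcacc
Ltf: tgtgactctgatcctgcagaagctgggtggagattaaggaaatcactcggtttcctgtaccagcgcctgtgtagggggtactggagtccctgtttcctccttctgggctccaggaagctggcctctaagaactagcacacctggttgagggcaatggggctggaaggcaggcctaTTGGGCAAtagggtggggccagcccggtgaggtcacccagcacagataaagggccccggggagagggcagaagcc
The match begins 216 bases before the start in Lcn2, 241 in Slpi, 179 in Defb3, 99 in Saa3 and 75 in Ltf. No match was found on either strand of the 6 windows for TGANTCA (AP-1, 6.75% of all promoters), TTCNNNGAA (STAT, 7.02%), GCGTG (the core that AhR binds, 28.2%) or the NF-kB consensus (3.9%). A match describes the letters only, and its absence says that they are not in this window.

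Signals are log2 values normalised over all arrays together by the authors, so a difference of 1 is a 2-fold difference, and they compare arrays for a given gene but not genes with each other. The lowest signal on an array lay between 2.18 and 2.32 and the highest between 14.75 and 14.98. Ahr itself overlapped between genotypes on its main probe set (9.07 to 9.87 in AhR KO and 9.79 to 10.27 in AhR HET skin on day 2, and 11.29 to 11.44 in AhR KO and 10.11 to 11.3 in AhR HET skin untreated). Where that probe set lies relative to the deleted part is not stated, so the level does not check the genotype labels. The 3′ signal of the Gapdh control exceeded the 5′ signal by 1.17 and 1.52 on AhR KO imiquimod replicates 1 and 2 and by 0.14 to 0.53 on the other 10 arrays, a difference that grows as RNA degrades. Of the AhR KO imiquimod arrays, only replicate 3 had a low Gapdh difference, and values with it alone in its group are given where they bear on the calls of this set and on the day 2 calls between genotypes in the other lists. For the gene lists other than this set, that setting, the Gapdh difference as a covariate and leaving out single arrays were chosen after the data were seen. Differences were called at an adjusted p under 0.05 over all genes and a fold of at least 1.5 by limma. The Gapdh difference was high on AhR KO imiquimod replicates 1 and 2 alone, and replicate 3 alone leaves 1 array in its group. Both settings estimate the genotype difference less precisely, so a call lost there does not show that the difference is absent. For Lcn2 on day 2 the standard error was 0.44 from all arrays and 0.69 with replicate 3 alone.

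Imiquimod raised most of this set in both genotypes. In AhR KO skin 7 of the 9 genes were called higher than in untreated skin and none lower, against 10.6% of all genes called higher and 12.1% lower. In AhR HET skin 6 of 9 were called higher and none lower, against 5.22% of all genes higher and 3.83% lower. Lcn2, Slpi, Defb3, Defb4 and Saa3 were called in both. With AhR KO imiquimod replicate 3 alone in its group, 7 genes were called in AhR KO skin as well, and 7 with the Gapdh difference as a covariate. The median difference over the 9 genes was 4.11 in AhR KO and 2.86 in AhR HET skin, beside 0.07 and -0.01 over all genes. All 3 imiquimod arrays lay above all 3 untreated arrays for 9 of 9 genes in AhR KO skin, as for 21.7% of all genes, and for 7 of 9 in AhR HET skin, as for 15.4% of all genes.

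**Figure D1:**
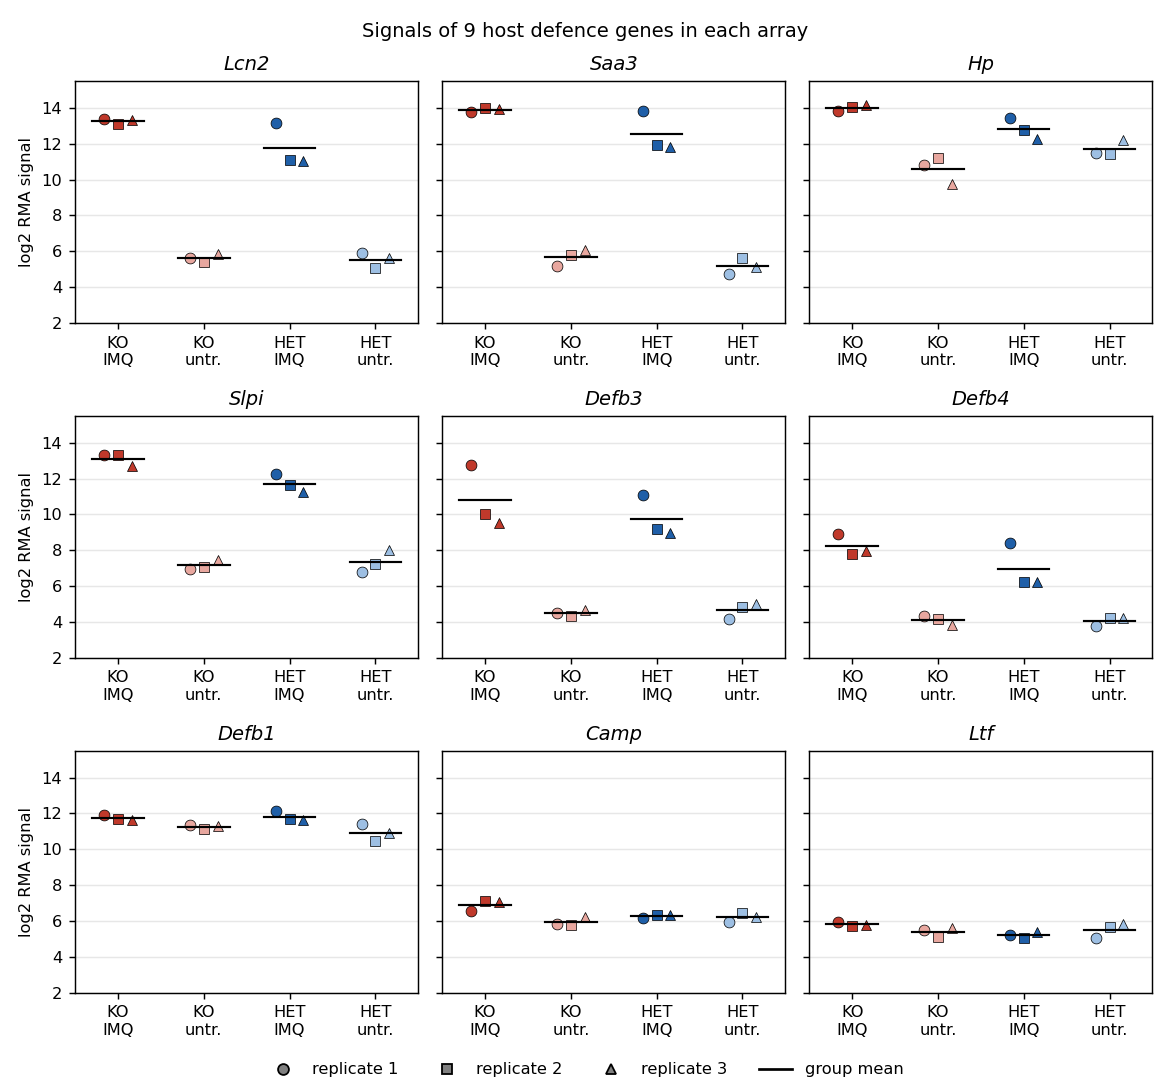
Log2 RMA signal of each of the 9 measured genes on each array, with AhR KO imiquimod (KO IMQ), AhR KO untreated, AhR HET imiquimod and AhR HET untreated skin from left to right, a symbol per replicate and a bar at the group mean. Lcn2, Saa3, Slpi, Defb3 and Defb4 stand well above untreated skin in both genotypes, AhR HET imiquimod replicate 1 lies above its 2 fellow replicates for 7 of the 9 genes, and Camp and Ltf span narrow ranges.

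Lcn2, whose product starves bacteria of siderophore-bound iron and which both keratinocytes and neutrophils make, rose in both genotypes. Its signal was 13.37, 13.11 and 13.30 in imiquimod-treated AhR KO skin, against 5.63, 5.42 and 5.87 in untreated AhR KO skin. The AhR HET values were 13.16, 11.12 and 11.04 with imiquimod, against 5.88, 5.06 and 5.6 untreated. Treated and untreated arrays were thus far apart in each genotype, and AhR HET replicate 1 stood at the level of the AhR KO arrays while replicates 2 and 3 lay about 2 units below it. The log2 difference was 7.62 (standard error SE 0.44, 197-fold, adjusted p = 5.42e-07) in AhR KO skin. The AhR HET difference was 6.26 (SE 0.44, 76.6-fold, adjusted p = 4.13e-06), and 5.57 (adjusted p = 9.94e-08) without replicate 1.

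Ltf, which encodes the iron-binding lactoferrin of neutrophil secondary granules, milk and mucosal secretions, was called in neither genotype. Its signals were 5.97, 5.72 and 5.78 in imiquimod-treated AhR KO skin, against 5.51, 5.10 and 5.59 in untreated AhR KO skin. They were 5.24, 5.04 and 5.37 in imiquimod-treated AhR HET skin, against 5.03, 5.68 and 5.82 in untreated AhR HET skin. The groups stood apart narrowly in AhR KO skin and overlapped in AhR HET skin. The log2 difference was 0.42 (SE 0.21, 95% interval -0.02 to 0.87, adjusted p = 0.151) in AhR KO skin and -0.30 (SE 0.21, -0.75 to 0.15, adjusted p = 0.416) in AhR HET skin. Over all 12 arrays Ltf spanned 0.94 units, and its promoter held a C/EBP match. All its signals lay below the array medians over genes (7.38 to 7.56), so a small change may escape detection.

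Camp, which encodes cathelicidin, the precursor of a membrane-active peptide that neutrophils store and epithelia can induce, passed the test in AhR KO skin. Its signals were 6.53, 7.11 and 7.05 with imiquimod, against 5.84, 5.78 and 6.24 in untreated AhR KO skin. In AhR HET skin they were 6.15, 6.36 and 6.33 with imiquimod, against 5.92, 6.46 and 6.25 untreated. The AhR KO groups did not overlap and the AhR HET groups did. The difference was 0.94 (SE 0.20, 1.92-fold, adjusted p = 0.00383) in AhR KO skin and 0.07 (SE 0.20, 95% interval -0.36 to 0.49, adjusted p = 0.878) in AhR HET skin. The difference between these responses was 0.87 (SE 0.28) and did not pass the test over all genes (adjusted p = 0.134). Every Camp signal lay below the array medians over genes (7.38 to 7.56), so a small change may escape detection.

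Slpi encodes a secreted inhibitor of neutrophil elastase and cathepsin G that also has antimicrobial activity. Its signals were 13.30, 13.30 and 12.70 in imiquimod-treated AhR KO skin, against 6.98, 7.05 and 7.43 in untreated AhR KO skin. The AhR HET signals were 12.25, 11.65 and 11.25 with imiquimod, against 6.80, 7.23 and 8.01 untreated. The treated arrays lay over 3 units above every untreated array in both genotypes. Slpi rose by 5.95 (SE 0.31, 61.6-fold, adjusted p = 2.67e-07) in AhR KO skin and by 4.37 (SE 0.31, 20.7-fold, adjusted p = 5.17e-06) in AhR HET skin.

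The beta-defensins, short cationic peptides secreted by epithelia, fell into a strongly inducible pair and a gene that moved little. Defb3 had signals of 12.77, 10.03 and 9.54 in imiquimod-treated AhR KO skin, against 4.51, 4.34 and 4.68 in untreated AhR KO skin. With AhR HET mice they were 11.10, 9.18 and 8.99 with imiquimod, against 4.14, 4.83 and 5.01 untreated. In each genotype imiquimod replicate 1 was the highest, by over 1.5 units, and the imiquimod arrays still cleared all untreated arrays by far. The rise was 6.27 (SE 0.71, 77.4-fold, adjusted p = 7.01e-05) in AhR KO skin and 5.09 (SE 0.71, 34.2-fold, adjusted p = 0.000904) in AhR HET skin. Without AhR KO imiquimod replicate 1 the rise in AhR KO skin was 5.28 (adjusted p = 7.4e-05), without replicate 3 it was 6.89 (adjusted p = 0.00011), and with replicate 3 alone it was 5.04 (adjusted p = 0.00313). Without AhR HET imiquimod replicate 1 the rise in AhR HET skin was 4.42 (adjusted p = 0.00384).

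Defb4, often set beside human beta-defensin 2, also rose in both genotypes. Its signals were 8.93, 7.82 and 7.94 in imiquimod-treated AhR KO skin, against 4.35, 4.17 and 3.82 in untreated AhR KO skin. They were 8.38, 6.21 and 6.21 in imiquimod-treated AhR HET skin, against 3.79, 4.20 and 4.24 in untreated AhR HET skin. Every treated array lay above every untreated array of its genotype, again with replicate 1 highest in each. Defb4 rose by 4.11 (SE 0.48, 17.3-fold, adjusted p = 8.86e-05) in AhR KO skin and by 2.86 (SE 0.48, 7.24-fold, adjusted p = 0.00312) in AhR HET skin, where it was 2.13 (adjusted p = 0.00196) without imiquimod replicate 1.

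Defb1, the beta-defensin that epithelia express without stimulation, was the exception among the defensins. Its main probe set read 11.89, 11.72 and 11.62 in imiquimod-treated AhR KO skin, against 11.36, 11.15 and 11.29 in untreated AhR KO skin. It read 12.14, 11.68 and 11.62 in imiquimod-treated AhR HET skin, against 11.41, 10.49 and 10.89 in untreated AhR HET skin. On this probe set the groups did not overlap in either genotype, though the gaps were small. The difference in AhR KO skin was 0.47 (SE 0.22, adjusted p = 0.124) and was not called. In AhR HET skin Defb1 rose by 0.88 (SE 0.22, 1.85-fold, adjusted p = 0.0216), a call lost without AhR HET untreated replicate 3 (0.87, adjusted p = 0.0643) or AhR HET imiquimod replicate 1 (0.72, adjusted p = 0.102) and when only the 2 groups compared were fitted (0.88, adjusted p = 0.0985). The other Defb1 probe set averaged 10.95 ± 0.22 and 10.55 ± 0.26 in imiquimod-treated and untreated AhR KO skin, and 10.96 ± 0.36 and 10.24 ± 0.40 in imiquimod-treated and untreated AhR HET skin (SD, n = 3 each). On that probe set the AhR KO groups overlapped (10.71 to 11.14 with imiquimod and 10.26 to 10.79 untreated), whereas the AhR HET groups did not.

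Saa3, the serum amyloid A made outside the liver by macrophages, adipocytes and epithelia in mice, had the largest difference of the 9 genes in each genotype. Its signals were 13.75, 13.98 and 13.96 in imiquimod-treated AhR KO skin, against 5.16, 5.80 and 6.06 in untreated AhR KO skin. AhR HET skin gave 13.82, 11.93 and 11.84 with imiquimod, against 4.74, 5.63 and 5.12 untreated. As for Lcn2, AhR HET imiquimod replicate 1 stood with the AhR KO arrays, apart from replicates 2 and 3. Saa3 rose by 8.22 (SE 0.44, 299-fold, adjusted p = 2.8e-07) in AhR KO skin and by 7.36 (SE 0.44, 165-fold, adjusted p = 1.45e-06) in AhR HET skin, where it was 6.72 (adjusted p = 1.05e-07) without imiquimod replicate 1.

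Hp encodes haptoglobin, which captures free haemoglobin and is made by liver, adipocytes and neutrophil precursors. Its signals were 13.83, 14.04 and 14.16 in imiquimod-treated AhR KO skin, against 10.81, 11.21 and 9.73 in untreated AhR KO skin. AhR HET skin had 13.46, 12.78 and 12.24 with imiquimod, against 11.47, 11.40 and 12.22 untreated. The AhR KO groups were well apart, whereas in AhR HET skin the lowest treated array stood just above the highest untreated array. Hp rose by 3.42 (SE 0.37, 10.7-fold, adjusted p = 5.14e-05) in AhR KO skin. In AhR HET skin the difference was 1.13 (SE 0.37, 95% interval 0.32 to 1.94, adjusted p = 0.0757) and was not called, though it passed without AhR KO untreated replicate 3 (1.13, adjusted p = 0.0346).

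**Figure D2:**
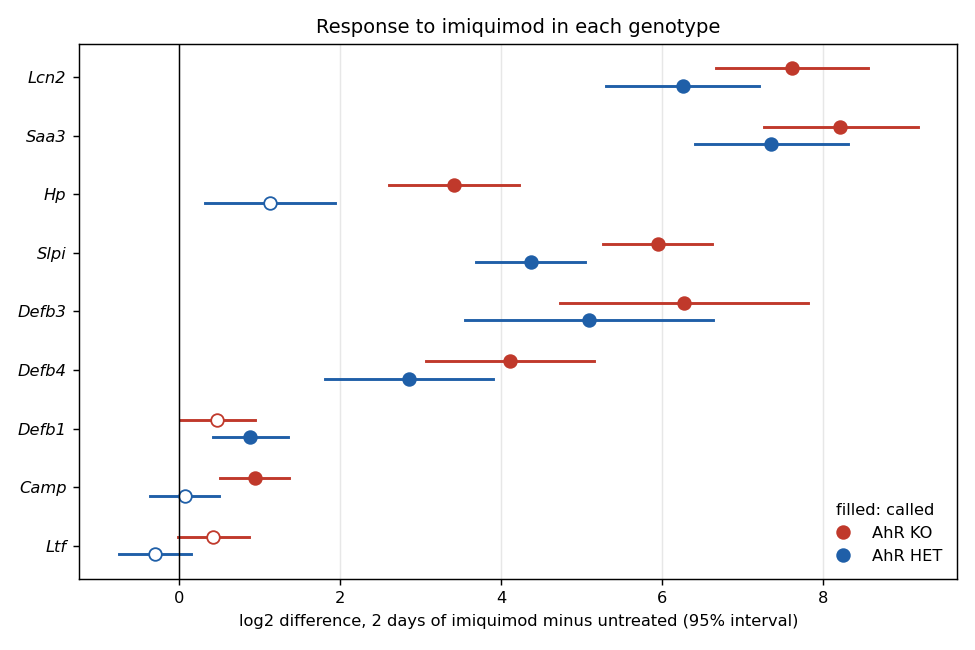
Log2 difference between skin after 2 days of imiquimod and untreated skin for each gene, AhR KO above AhR HET, with the 95% interval from limma, where filled circles mark called differences. The AhR KO value lies to the right of the AhR HET value for 8 of the 9 genes, the exception being Defb1.

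Whether loss of AhR changed these genes was asked by comparing AhR KO with AhR HET skin on day 2. The AhR KO mean was higher for 8 of 9 genes, with a median difference of 1.18 beside 0.06 over all genes, but only Slpi was called, where 2.12% of all genes were called higher and 1.86% lower. Slpi was 13.30, 13.30 and 12.70 in AhR KO skin, against 12.25, 11.65 and 11.25 in AhR HET skin, and the groups did not overlap. Its difference was 1.38 (SE 0.31, 2.60-fold, adjusted p = 0.0299). The call was lost with the Gapdh 3′/5′ difference as a covariate (0.92, adjusted p = 0.686). With AhR KO replicate 3, whose Gapdh difference was low, alone in its group, the difference was 0.98. Leaving out an AhR KO array ended the call too, for replicate 1 (1.28, adjusted p = 0.0942) and replicate 2 (1.28, adjusted p = 0.139). Leaving out AhR HET replicate 2 (1.35, adjusted p = 0.13) or replicate 3 (1.15, adjusted p = 0.15) also ended it.

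The other differences on day 2 did not pass the test. Among the acute phase and iron-withholding genes they were 1.49 for Lcn2 (SE 0.44, adjusted p = 0.0771), 1.37 for Saa3 (SE 0.44, adjusted p = 0.1) and 1.18 for Hp (SE 0.37, adjusted p = 0.0967). Ltf and Camp each differed by 0.61 (SE 0.21, adjusted p = 0.117, and SE 0.20, adjusted p = 0.0994). The defensins gave 1.29 for Defb4 (SE 0.48, adjusted p = 0.152), 1.03 for Defb3 (SE 0.71, adjusted p = 0.433) and -0.07 for Defb1 (SE 0.22, 95% interval -0.54 to 0.40). Unadjusted p-values were under 0.05 for 7 of the 9 genes. The share of all genes under this cut is not given here, so the count cannot be set against it. Slpi, Ltf, Camp and Hp had all AhR KO arrays above all AhR HET arrays, 4 of 9 beside 18.0% of all genes. With AhR KO replicate 3 alone in its group the Defb3 difference was -0.21.

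A single AhR HET array stood apart on day 2. AhR HET imiquimod replicate 1 exceeded the higher of replicates 2 and 3 by 2.04 for Lcn2, 2.16 for Defb4, 1.92 for Defb3 and 1.89 for Saa3, whereas replicates 2 and 3 differed from each other by 0.07, 0.01, 0.18 and 0.09 for the same genes. Replicates 2 and 3 both lay below all AhR KO imiquimod arrays for 8 of the 9 genes. Without replicate 1, 5 genes were called higher in AhR KO skin: Lcn2 (2.18, adjusted p = 0.000244), Saa3 (2.01, adjusted p = 0.00193), Defb4 (2.02, adjusted p = 0.00263), Slpi (1.65, adjusted p = 0.0125) and Hp (1.5, adjusted p = 0.0495). Without AhR HET untreated replicate 1, which enters only the estimate of spread here, Ltf was called beside Slpi (0.61, adjusted p = 0.0484). The share of all genes called in these settings is not given here, so the counts cannot be set against it. Nothing in the labels sets AhR HET imiquimod replicate 1 apart, and its Gapdh difference of 0.14 was the lowest of the 12, so it was kept.

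**Figure D3:**
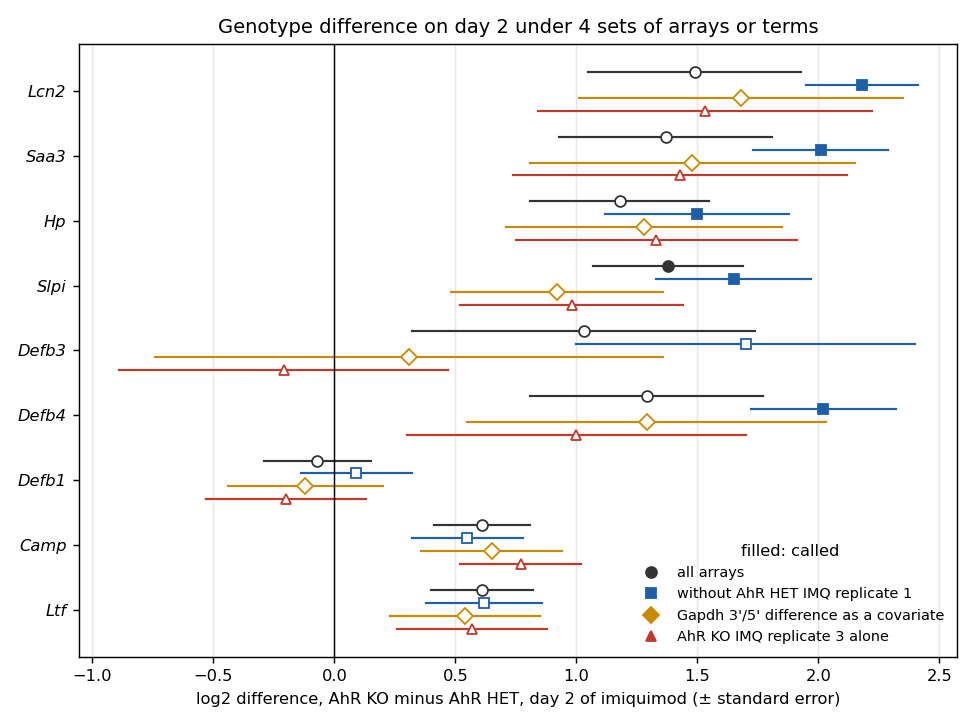
Log2 difference between AhR KO and AhR HET skin on day 2 of imiquimod for each gene, with its standard error, from all arrays (circles), without AhR HET imiquimod replicate 1 (squares), with the Gapdh 3′/5′ difference as a covariate (diamonds) and with AhR KO imiquimod replicate 3 alone in its group (triangles), where filled symbols mark called differences. Slpi is the only gene called from all arrays, 5 genes are called without AhR HET replicate 1, and none is called with the Gapdh covariate. The covariate and replicate 3 alone both lower the precision, so an open symbol there does not show that a difference is absent.

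No gene of the set was called by limma between the genotypes in untreated skin, where 1 of all 18193 genes (0.0055%) was called higher and none (0.0%) lower. The median difference was -0.11 beside 0.02 over all genes. Hp had the only unadjusted p under 0.05, with 10.81, 11.21 and 9.73 in AhR KO skin, against 11.47, 11.40 and 12.22 in AhR HET skin. All AhR KO arrays thus lay below all AhR HET arrays, as for 3.78% of all genes, and the difference was -1.11 (SE 0.37, adjusted p = 0.719). For the other 8 genes the groups overlapped, with differences from -0.26 (Camp) to 0.51 (Saa3). These intervals still allow sizeable differences, such as -0.82 to 1.08 for Lcn2 and -1.70 to 1.39 for Defb3.

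The difference between the responses of the genotypes was above 0 for 8 of the 9 genes and called for none of them, against 0.539% of all genes called higher and 0.786% lower. It was 2.29 (SE 0.53, 95% interval 1.15 to 3.44, adjusted p = 0.0563) for Hp, which stood lower in untreated and higher in treated AhR KO skin than in AhR HET skin. For Slpi it was 1.57 (SE 0.44, adjusted p = 0.0994) and for Lcn2 1.36 (SE 0.62, adjusted p = 0.281). Unadjusted p-values were under 0.05 for 5 of the 9 genes, again without the share of all genes beside it. The lowest value was that of Defb1, at -0.41 (SE 0.30, adjusted p = 0.52). With AhR KO imiquimod replicate 3 alone in its group the Lcn2 value was 1.4 (adjusted p = 0.688), that of Slpi 1.17 (adjusted p = 0.559) and that of Hp 2.44 (adjusted p = 0.316). Without AhR HET imiquimod replicate 1 the test called Lcn2 (2.05, adjusted p = 0.00577), Defb4 (1.98, adjusted p = 0.0268) and Hp (2.61, adjusted p = 0.0225), and without AhR HET untreated replicate 1 it called Ltf (0.96, adjusted p = 0.0414), Slpi (1.84, adjusted p = 0.0296) and Hp (2.41, adjusted p = 0.0342).

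The genes whose signals ran closest to these over the 12 arrays were found by the root mean square difference between centred log2 signals. The nearest to Lcn2 were Prg4 (0.51) and Saa3 (0.61), and the nearest to Saa3 were Stfa2l1 (0.42) and Lcn2 (0.61), so that Lcn2 and Saa3 named each other. Slpi lay nearest to Gsta4 (0.47) and to Saa1 (0.48), another serum amyloid A. Defb3 lay nearest to Sprr2i (0.48) and Lce3a (0.56), genes of the cornified envelope families, and Defb4 to Sh2d5 (0.42) and Serpina3n (0.43), an acute phase protease inhibitor. Hp lay nearest to Mt1 (0.53) and Hmga2 (0.54). Each of these 6 genes spanned 4.42 to 9.24 units over the arrays, and the likeness is a description over arrays that fall into 4 groups.

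Other genes of the same functions moved with them in part. Of 25 further acute phase genes measured, 13 were called higher and 3 lower by imiquimod in AhR KO skin (10 and 1 with AhR KO replicate 3 alone in its group), and 6 higher and none lower in AhR HET skin. Saa1 averaged 9.74 ± 0.39 in imiquimod-treated and 3.78 ± 0.68 in untreated AhR KO skin, and 8.00 ± 1.08 in imiquimod-treated and 3.69 ± 0.46 in untreated AhR HET skin (SD, n = 3 each), a rise of 5.96 (SE 0.47, adjusted p = 4.69e-06) in AhR KO and of 4.31 (SE 0.47, adjusted p = 0.000162) in AhR HET skin, where it was 3.71 (adjusted p = 0.000216) without imiquimod replicate 1. Serpina3n rose by 3.86 in AhR KO and 3.03 in AhR HET skin. Hamp, which encodes the iron hormone hepcidin, fell by 3.5 (SE 0.56, adjusted p = 0.000742) in AhR KO skin, with a difference of -2.65 (adjusted p = 0.000433) without untreated replicate 3 and of -4.21 (adjusted p = 0.000135) without untreated replicate 2. It averaged 4.53 ± 0.50 in imiquimod-treated and 8.03 ± 1.57 in untreated AhR KO skin. In AhR HET skin Hamp also stood lower with imiquimod, at 4.60 ± 0.22 against 5.91 ± 0.20 untreated (SD, n = 3 each). On day 2, 4 of the 25 were called higher in AhR KO than in AhR HET skin and none lower: Cd14, a co-receptor for lipopolysaccharide (3.45, adjusted p = 0.000428), Lrg1 (1.82, adjusted p = 0.0165), Saa2 (1.24, adjusted p = 0.0469) and Itih3 (0.85, adjusted p = 0.0391). With AhR KO replicate 3 alone in its group or with the Gapdh covariate, 0 of the 25 were called on day 2, and Cd14 then differed by 3.24 (adjusted p = 0.0658) and 3.2 (adjusted p = 0.0594). Leaving out single arrays gave 1 to 8 calls, and Cd14 kept its call whichever of the 12 arrays was left out, Lrg1 for 9, Itih3 for 5 and Saa2 for 3 of them.

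Of 20 further antimicrobial genes, 7 were called higher and 4 lower by imiquimod in AhR KO skin (5 and 1 with AhR KO replicate 3 alone in its group), and 5 higher and 1 lower in AhR HET skin. S100a8 and S100a9, which form the zinc-binding calprotectin, led both comparisons. S100a9 averaged 14.80 ± 0.12 in imiquimod-treated and 6.45 ± 0.30 in untreated AhR KO skin, and 14.16 ± 0.45 in imiquimod-treated and 5.93 ± 0.68 in untreated AhR HET skin (SD, n = 3 each). Its signals in imiquimod-treated AhR KO skin, 14.69 to 14.92, stood at the top of the arrays, whose highest signals were 14.75 to 14.98. Differences at this level may be held down. Retnla, a resistin-like protein, fell in both, by 3.03 in AhR KO and 2.30 in AhR HET skin. Ccl20 rose by 3.51 (adjusted p = 0.000809) in AhR HET skin. Its rise in AhR KO skin was 1.40, a call kept for 5 of the 12 single arrays left out. On day 2 Ccl20 averaged 8.84 ± 0.70 in AhR KO and 10.24 ± 0.85 in AhR HET skin (SD, n = 3 each). On day 2 Ngp (2.30, adjusted p = 0.000714), Pglyrp1 (2.24, adjusted p = 7.26e-05) and Wfdc12 (0.92, adjusted p = 0.046) were called higher in AhR KO than in AhR HET skin, and none was called lower. Of these, Pglyrp1 was still called with AhR KO replicate 3 alone in its group (2.11, adjusted p = 0.0214), whereas Ngp (2.0, adjusted p = 0.099) and Wfdc12 (0.9, adjusted p = 0.432) were not. Pglyrp1 and Ngp kept their calls whichever single array was left out, and Wfdc12 for 4 of the 12.

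The cytokines that induce these proteins were measured for 6 of 12 listed genes, with none of Il17c, Il17f, Il22 and the 3 Il36 genes among them. Imiquimod raised 5 of the 6 in AhR KO and 3 in AhR HET skin. Il17a, the exception in AhR KO skin, averaged 5.42 ± 0.19 in imiquimod-treated and 5.2 ± 0.28 in untreated AhR KO skin, and 5.35 ± 0.18 in imiquimod-treated and 4.98 ± 0.05 in untreated AhR HET skin (SD, n = 3 each), and was called in no comparison. Il17a was chosen for mention after its values were seen. Its signals lay below the array medians over genes (7.38 to 7.56), so lack of a rise cannot be told apart from lack of detection. Il1b averaged 12.68 ± 0.13 in imiquimod-treated and 6.27 ± 0.57 in untreated AhR KO skin, and 8.59 ± 1.19 in imiquimod-treated and 6.35 ± 0.18 in untreated AhR HET skin (SD, n = 3 each). On day 2 Il1b (4.09, adjusted p = 0.000585), Il6 (2.38, adjusted p = 0.00616), Osm (2.17, adjusted p = 7.1e-05) and Tnf (1.23, adjusted p = 0.00277) were called higher in AhR KO skin. All 4 kept their calls whichever single array was left out, with Il1b at 4.77 (adjusted p = 1.92e-06) without AhR HET imiquimod replicate 1 and Il6 at 1.78 (adjusted p = 0.00474) without AhR HET imiquimod replicate 3. With AhR KO replicate 3 alone in its group, Osm (1.81, adjusted p = 0.0131) and Tnf (1.41, adjusted p = 0.0214) were still called, whereas Il1b (4.21, adjusted p = 0.064) and Il6 (2.5, adjusted p = 0.19) were not. With the Gapdh covariate the calls were Il1b (4.31, adjusted p = 0.0401) and Osm (1.74, adjusted p = 0.00596). The responses of Il1b, Osm and Tnf also differed between genotypes, by 4.17 (adjusted p = 0.0131), 2.28 (adjusted p = 0.00221) and 1.49 (adjusted p = 0.0174). With replicate 3 alone 2 of these 3 were called, not Il1b (4.3, adjusted p = 0.161), and with the covariate only Osm was. The Il1b response difference was lost without AhR KO untreated replicate 1 (4.01, adjusted p = 0.051), and that of Tnf without AhR KO untreated replicate 1 (1.44, adjusted p = 0.0628), AhR KO imiquimod replicate 2 (1.36, adjusted p = 0.0516) or AhR HET imiquimod replicate 2 (1.52, adjusted p = 0.0599) or 3 (1.39, adjusted p = 0.0655). Of 12 receptor genes, Il1r1 (1.51, adjusted p = 0.00407) and Il17ra (1.11, adjusted p = 0.0443) were called higher in AhR KO skin on day 2, neither of them with replicate 3 alone or with the covariate, and Il17ra kept its call for 4 of the 12 single arrays left out. Another list held 7 measured genes that act downstream, among them the transcription factors Cebpb and Cebpd and the adaptor Traf3ip2. Imiquimod raised 5 of them in AhR KO and 3 in AhR HET skin, and none was called between genotypes on day 2. The AhR KO count was 4 with the Gapdh covariate and 4 to 6 without single arrays. Fewer were called in AhR KO skin with replicate 3 alone, a less precise fit. These counts do not compare the genotypes.

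Markers of neutrophils, which can themselves carry the products of Lcn2, Ltf, Camp, Slpi and Hp, moved with the treatment and with the genotype. Of 15 measured, 11 were called higher by imiquimod in AhR KO skin and 5 in AhR HET skin, and on day 2, 11 were called higher in AhR KO than in AhR HET skin, with none lower. Of these day 2 calls, Cd177 (2.59, adjusted p = 0.00166) and Trem1 (3.19, adjusted p = 0.00935) were left with AhR KO replicate 3 alone in its group, the same 2 genes were left with the Gapdh covariate, and 9 to 11 calls were made without single arrays. Their mean log2 signal was 8.71, 9.09 and 8.86 in imiquimod-treated AhR KO skin, against 7.19, 6.39 and 6.19 in imiquimod-treated AhR HET skin, with 5.63 to 6.01 over the untreated arrays. AhR HET replicate 1 was again the highest of its group. The summed linear signals were 17358 to 21778 in AhR KO and 2700 to 5044 in AhR HET skin on day 2. They were 2190 to 2695 in untreated AhR KO and 1457 to 2845 in untreated AhR HET skin. Such sums weigh the genes of highest signal most, such as Clec4d (mean 12.33) and Il1r2 (11.81) in AhR KO skin on day 2. Il1r2 averaged 10.56 in untreated AhR KO and 10.21 in untreated AhR HET skin. Clec4d spanned 12.07 to 12.76 in AhR KO and 6.53 to 9.14 in AhR HET skin on day 2, and the mean of Mmp8, a granule collagenase, was 10.2 in AhR KO and 6.37 in AhR HET skin. The 4 primary granule genes of the list were not called between genotypes on day 2 and were chosen for mention after their values were seen. Mpo spanned 4.26 to 5.04 in AhR KO and 4.43 to 4.7 in AhR HET skin, and Ctsg 3.98 to 4.69 in AhR KO and 4.12 to 4.57 in AhR HET skin. Elane spanned 5.17 to 5.38 in AhR KO and 4.79 to 5.02 in AhR HET skin, and Prtn3 7.42 to 8.86 in AhR KO and 6.9 to 7.42 in AhR HET skin. The list shares Ngp with the antimicrobial genes. The part of neutrophils in the differences of this set was not tested.

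**Figure D4:**
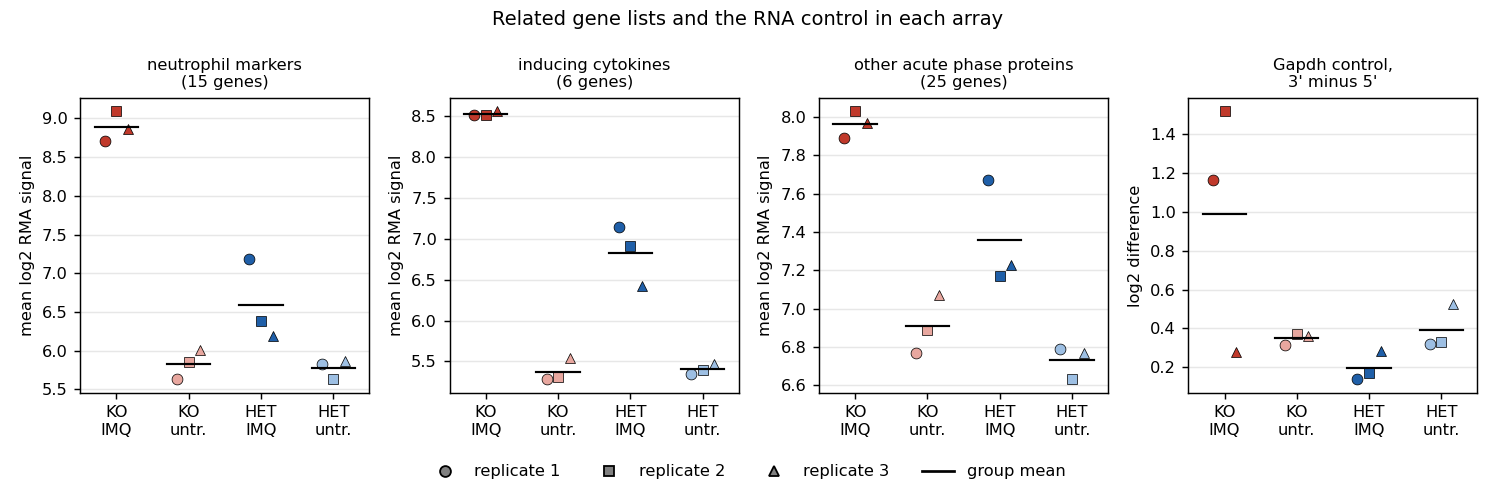
Mean log2 RMA signal on each array of the neutrophil markers, the inducing cytokines and the further acute phase genes, and the excess of the 3′ over the 5′ signal of the Gapdh control in log2 units, with groups in the same order, a symbol per replicate and a bar at the group mean. The 3 AhR KO imiquimod arrays lie above all AhR HET imiquimod arrays in the first 3 panels, and 2 of them stand apart in the Gapdh panel.

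Marker lists of the other cells of whole skin moved less or the other way between genotypes on day 2. Their medians were -0.31 (keratinocytes) to 0.33 (adipocytes), beside 2.30 for neutrophils. With imiquimod in AhR HET skin, the keratinocyte (0.70) and macrophage (0.65) medians exceeded that of neutrophils (0.17). Of 7 keratinocyte markers, Krt1 and Krt10 of the upper layers were called lower in AhR KO than in AhR HET skin on day 2 (-2.79, adjusted p = 0.00616, and -2.71, adjusted p = 0.00593), while the basal Krt14 rose with imiquimod by 1.58 in AhR KO and 1.49 in AhR HET skin. The summed linear signal of the keratinocyte list was 62379 to 65196 in AhR KO and 78127 to 108005 in AhR HET skin on day 2. Here too the genes of highest signal weigh most. Of 8 macrophage markers, only Adgre1 was called higher with imiquimod in AhR HET skin (2.24, adjusted p = 0.000703), whichever single array was left out. Its mean in AhR KO skin was 9.64 with imiquimod and 9.79 untreated. The Adgre1 responses differed by -2.39 (adjusted p = 0.0223), a call kept for 4 of the 12 single arrays left out. On day 2 Adgre1 was called lower in AhR KO than in AhR HET skin (-1.60, adjusted p = 0.0119), and no macrophage marker was called higher. With AhR KO replicate 3 alone in its group neither Krt1 (-2.19, adjusted p = 0.319) nor Krt10 (-2.11, adjusted p = 0.317) nor Adgre1 (-1.25, adjusted p = 0.392) was called, and Adgre1 also lost its call without AhR KO imiquimod replicate 2 (-1.43, adjusted p = 0.0762) or AhR HET imiquimod replicate 3 (-1.52, adjusted p = 0.0684). Without AhR HET imiquimod replicate 1 Krt10 differed by -3.4 (adjusted p = 1.19e-05). Of the 6 markers of adipocytes, a source of Hp and Saa3, none was called between genotypes on day 2, and 2 were called lower and none higher with imiquimod in AhR KO skin. Of 6 fibroblast markers, Lum was called lower in AhR KO skin on day 2 (-1.12, adjusted p = 0.038) and none higher. Lum kept its call for 7 of the 12 single arrays left out, and its value with AhR KO replicate 3 alone is not given here. With the Gapdh covariate no keratinocyte, macrophage or fibroblast marker was called between genotypes on day 2. Of 6 skeletal muscle markers, none was called between genotypes on day 2. With imiquimod 3 of them were called lower in AhR KO and 1 in AhR HET skin, and none higher. The part of these cells in the results was not tested.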

How the data were processed

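The authors deposited log2 signals of probe sets, which they computed by RMA with affy (version not given in the sources used here). This method corrects for background, normalises the arrays together by quantiles and summarises each probe set, which compresses low values. Of 45101 probe sets, 64 controls, 932 annotated to several genes and 9160 without a symbol in the platform annotation were left out, which left 34945 for 18193 genes. Where several remained (9010 genes), the set with the highest average signal on the 12 arrays stood for the gene. The 4 group means were fitted with limma 3.58.1 in R 4.3.3 (8 residual and 4.44 prior degrees of freedom), with Benjamini-Hochberg adjustment across all genes in each of 5 comparisons. The fit was tested on simulated data. The study's rank product was not run, since it permutes over genes. The genes and lists were chosen with earlier results of these data known. Every gene of the set is given in each comparison. Of each other list, the text draws on up to 4 called genes with the largest difference, or the 2 with the lowest p, and the 2 nearest genes are named for genes spanning at least 2 units. Il17a, Il1r2 and the primary granule genes were chosen for mention after their values were seen. Alternatives changed the threshold, probe sets, low-signal filter, scaling, variance model, weights, arrays and covariates. The number of arrays limits the precision.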

Additional observations from a re-analysis of the deposited data

How the results depend on the processing

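The count of 7 genes called in AhR KO skin stayed at 7 whichever of the 12 arrays was left out, that of 6 in AhR HET skin moved between 5 and 7, and that of 0 in untreated skin stayed at 0. The day 2 count of 1 was 0 at an adjusted p under 0.01, with the replicate block, with the Gapdh covariate and with AhR KO imiquimod replicate 3 alone in its group. It was 7 with array weights and 3 when only the 2 groups compared were fitted. Leaving out single arrays gave 0 to 5, with 5 without AhR HET imiquimod replicate 1, 2 without AhR HET untreated replicate 1, and 0 without AhR HET imiquimod replicate 2 or 3 or AhR KO imiquimod replicate 1 or 2. The count of 0 for the difference of responses was 4 with array weights and 0 to 3 without single arrays, 3 without AhR HET untreated or imiquimod replicate 1. The cause was not tested, and the share of all genes called under each alternative is not given here. Deviations of same-numbered arrays from their group means correlated at r from -0.18 to 0.32 (18 pairs, 7 over 0.1). They were not compared with differently numbered arrays, so this does not settle whether the numbers mark pairs. The replicate block ended the call of Slpi on day 2 (1.38, adjusted p = 0.0513) and moved no other count. No called difference changed sign under any alternative. Array weights also called Ltf (0.66, adjusted p = 0.00853) and Defb1 (0.59, adjusted p = 0.0081) in AhR KO skin. Hp in AhR HET skin was called without AhR KO untreated replicate 3 (1.13, adjusted p = 0.0346).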
